A study of Mus musculus with 4 samples.

Results

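Immediate-early transcription factor genes were examined in mouse colonic monocytes and macrophages. The group was taken as listed symbols, Fos, Fosb, Jun, Junb, Jund, Egr1, Atf3 and Ier2, and all 8 were found among the 11820 genes of the count matrix. All 8 passed the filter on low counts in every comparison tested. No measured value entered the choice of these genes, but the list was drawn up with results of these data already known.

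Single cells came from the colonic lamina propria of male C57BL/6N mice, 6 to 7 weeks old, of which 2 were fed chow (replicates 9 and 11) and 2 a coconut-based high-fat diet (HFD, labelled 60%, replicates 1 and 3) for 1 week. All mice were wild-type, and the same steps were described for all of them, in which the epithelium was stripped, the tissue was digested with collagenase at body temperature, and live CD45+ Lin- CD11b+ CD24- cells with Ly6C or CD64 on their surface were sorted and captured in 1 droplet library per mouse. The matrix held 5420 cells, with 904 and 2002 from the chow mice and 966 and 1548 from the HFD mice, and between 3824228 and 7947893 unique molecular identifiers (UMIs) per mouse. Median depth ran from 3266 to 3926 UMIs per cell, 23 cell barcodes occurred in more than 1 library, and Scrublet marked 38 cells (0.701%) as doublets.

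Immediate-early genes are transcribed within minutes of a stimulus without new protein synthesis, through kinase cascades that act on factors already present in the cell. FOS and JUN proteins pair through leucine zippers to form AP-1, ATF3 is a related zipper protein that is strongly raised by stress and in macrophages restrains inflammatory genes, EGR1 is a zinc finger factor that follows growth factor signals, and IER2 is a small nuclear regulator of the same early wave. In the colon, blood monocytes enter the lamina propria, gain MHC class II and then C1q as they mature into resident macrophages. Enzymatic digestion of tissue is known to switch on immediate-early and heat-shock genes in cells before they are lysed.

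To follow this maturation, cells were placed in 4 stages by transcripts that do not include the 8 genes. Stage A was Ly6c2-positive (2 or more UMIs per 10000) and low for MHC class II and C1q, stage B was Ly6c2-positive and high for MHC class II, stage C was Ly6c2-negative and high for MHC class II, and stage D was C1q-high and Ly6c2-negative. MHC class II was high above 203.7 and C1q above 23.8 UMIs per 10000, and 414 cells lay within 0.5 of either limit on the log2 scale. In the order chow replicates 9 and 11 and HFD replicates 1 and 3, stage A held 66, 69, 275 and 324 cells, stage B 3, 18, 78 and 314, stage C 26, 28, 112 and 191, and stage D 751, 1793, 381 and 435, while 58, 94, 120 and 284 cells stayed outside. Levels are given below in this order of mice as CPM, the UMIs of a gene relative to all UMIs of the summed cells. With fewer than 20 cells in both chow mice, stage B was not compared between diets.

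The labels of stages A and D were checked against marker genes. The monocyte gene Plac8, which the gates did not use, lay between 5978 and 13652 CPM in stage A and between 48.0 and 1428 CPM in stage D. Stage A of the chow mice also held RNA of plasma cells, since 4 B and plasma cell genes took 4.06% and 2.65% of its UMIs against 0.0121% and 0.00942% in the HFD mice, and 2 and 1 chow cells in it had over 10% of their UMIs from these genes. Stage D was not the same mix of cells on both diets. Summed over 10 resident macrophage genes, each detected in stage D, the level was 65274 and 62725 CPM under chow against 24633 and 19087 CPM under HFD, of which Apoe gave 61197, 58582, 23209 and 18025 CPM. Monocyte genes moved the other way, at 307 and 454 CPM under chow against 2250 and 1950.3 CPM under HFD for 7 genes, among them the gate gene Ly6c2 at 2.67, 3.02, 19.9 and 26.7 CPM. In a clustering made without the 8 genes 79.0% and 80.0% of stage D cells on chow lay in clusters 5 and 6 against 27.8% and 11.5% on HFD.

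For 6 of the 8 genes, all but Egr1 and Ier2, a promoter was matched in the table of RefSeq promoters used here (GRCm38.p6). In GENCODE M21 on GRCm38, 7 of the genes lie at chr12:85473890-85477273 (Fos, plus strand), chr7:19302696-19310051 (Fosb, minus), chr4:95049034-95052222 (Jun, minus), chr8:84974484-84978718 (Junb, minus), chr8:70698949-70700616 (Jund, plus), chr1:191170296-191218039 (Atf3, minus) and chr8:84661331-84662852 (Ier2, minus). The 250 bases before the start of Fos (chr12:85473640-85473889, plus strand), Jun (chr4:95052223-95052472, minus) and Atf3 (chr1:191183334-191183583, minus) are shown because Fos, Jun and Atf3 were 3 of the 5 members that fell on HFD in stage D, as described below, the other two being Fosb and Junb. The Fos and Jun windows end at the start of the GENCODE gene, whereas the Atf3 window lies inside the GENCODE gene, which begins farther upstream. Capitals mark TGACG, the core of cyclic AMP response elements, TGACNTCA, which covers sites of the ATF and JUN type and contains TGACG when N is G, and the TATA box TATAAA, all searched on both strands.
Fos: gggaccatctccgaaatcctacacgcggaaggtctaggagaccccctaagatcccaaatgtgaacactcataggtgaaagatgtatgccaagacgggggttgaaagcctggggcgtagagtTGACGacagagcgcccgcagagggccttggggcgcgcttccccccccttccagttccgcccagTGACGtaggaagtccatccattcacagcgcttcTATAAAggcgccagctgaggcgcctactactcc
Jun: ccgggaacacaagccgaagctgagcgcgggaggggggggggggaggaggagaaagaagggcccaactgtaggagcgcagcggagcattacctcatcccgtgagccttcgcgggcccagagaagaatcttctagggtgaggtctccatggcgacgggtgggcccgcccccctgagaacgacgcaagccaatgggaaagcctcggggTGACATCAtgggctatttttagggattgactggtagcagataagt
Atf3: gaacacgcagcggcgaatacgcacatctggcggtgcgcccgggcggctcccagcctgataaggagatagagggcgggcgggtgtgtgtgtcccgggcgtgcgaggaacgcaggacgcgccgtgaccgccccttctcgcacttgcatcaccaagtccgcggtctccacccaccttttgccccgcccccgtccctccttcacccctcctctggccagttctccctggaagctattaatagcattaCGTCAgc

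TGACG occurred at 2 places in Fos, 129 and 66 bases before the start, and in reverse 7 bases before the start of Atf3, where the capitals read CGTCA. Over 32851 RefSeq promoters of the same length 17.8% held it. Jun held TGACATCA beginning 45 bases before its start, and TGACNTCA was found in 7.49% of promoters, while TATAAA, found in 12.4%, began 33 bases before the start of Fos. Fosb and Junb each held 1 TGACG. The window of Jund ends before the GENCODE start given above, so its motifs are not given. The AP-1 site TGACTCA (4.46% of promoters) and the CArG box bound by serum response factor (1.47%) were in none of the other 5 windows, which says only that these letters are not in these 250 bases. A match is a description of the sequence and no evidence of a bound factor.

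The question of the first comparison was how the genes differ between stages of maturation. In stages A and C, a minority of the 8 genes was called lower than in C1q-high cells, led by Fosb and Egr1. None was called higher in the main fit, which held the mice of both diets. Without scaling of the sums 3 members were called between A and D among 1256 genes, 1 of them higher in A. Genes were tested on UMI sums of stages A, C and D with a term for each mouse by the quasi-likelihood test of edgeR at a false discovery rate (FDR) of 1%. Between stages A and D 1150 of 5607 genes (20.5%) were called and 10.3% were called lower in A, against 2 of the 8 members. Between C and D 279 genes (4.98%) were called and 3.41% were called lower in C, against 3 members. The median log2 fold change of the 8 genes was -0.22 in A and -0.78 in C relative to D, beside -0.03 and 0.02 over all genes. Stage C also carried more RNA of dendritic cell genes than D. The 7 genes of that list stood at 696, 426, 900 and 759 CPM in C, against 49.2, 54.0, 189 and 187 CPM in D. Of 3 tested, Cd209a (4.15) and Flt3 (4.03) were called higher in C by edgeR. The part of this in the values of C against D was not tested.

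Fos, the founding member of its family, lay in stage A at 5027, 5224, 3952 and 4481 CPM, in stage B at 2237, 2870, 2653 and 3605 CPM, in stage C at 3776, 4744, 2148 and 2870 CPM, and in stage D at 6552, 6883, 3637 and 3252 CPM. Both chow mice were thus highest in D and both HFD mice highest in A. Fos was lower in C than in D by a log2 fold change of -0.82 ± 0.16 (SE, edgeR adjusted p = 0.0012), and in A the difference of -0.22 ± 0.16 was not called.

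Fosb, which encodes a close relative of FOS, stood at 263, 393, 246 and 312 CPM in stage A and at 415, 715, 328 and 250 CPM in stage C. In stage D it reached 930, 1004, 578 and 472 CPM, in each mouse above that mouse's own value in A and C. Its log2 fold change was -1.37 ± 0.18 in A against D (edgeR adjusted p = 2.2e-06) and -1.10 ± 0.19 in C against D (edgeR adjusted p = 0.00030).

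Egr1 was likewise highest in stage D, with 124, 113, 127 and 73.0 CPM in stage A, 120, 152, 143 and 57.8 CPM in stage C and 268, 380, 233 and 113 CPM in stage D. This held in every mouse. Egr1 differed by -1.22 ± 0.19 in A and by -1.22 ± 0.21 in C on the log2 scale (edgeR adjusted p = 1.9e-05 and 0.00037).

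Jun, the main partner of FOS, did not follow the same order in all mice. It stood at 1334, 461, 364 and 472 CPM in stage A, at 843, 517, 285 and 194 CPM in stage C and at 1620, 751, 309 and 223 CPM in stage D. Chow replicate 9 was the highest mouse in each of these stages. Neither A (-0.07 ± 0.21) nor C (-0.73 ± 0.23, edgeR adjusted p = 0.044) was called against D. Junb, a weaker activator of the JUN family, ranged from 3756 to 5237 CPM over stages A and C and lay at 6826, 6115, 4523 and 4159 CPM in D, with log2 fold changes of -0.43 ± 0.16 in A and -0.64 ± 0.16 in C that were not called.

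Jund, which in many cells is expressed steadily rather than induced, was sparse, at 12.5 to 53.6 CPM in stages A, C and D, and was called in neither comparison. In stage B it had 0 UMIs in both chow mice, whose small sums allow up to 231 and 62.4 CPM (3 counts). Atf3 stood at 1416, 931, 934 and 997 CPM in stage A, at 937, 775, 630 and 427 CPM in C and at 1975, 2023, 672 and 495 CPM in D, so that the chow mice were highest in D and the HFD mice in A, and was not called in A (-0.21 ± 0.24) or in C (-0.98 ± 0.25, edgeR adjusted p = 0.014). Ier2 lay at 1076, 1039, 756 and 873 CPM in stage A and at 662, 831, 586 and 426 CPM in D, higher in A in every mouse, with a log2 fold change of 0.45 ± 0.16 that was not called (edgeR adjusted p = 0.041).

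**Figure D1:**
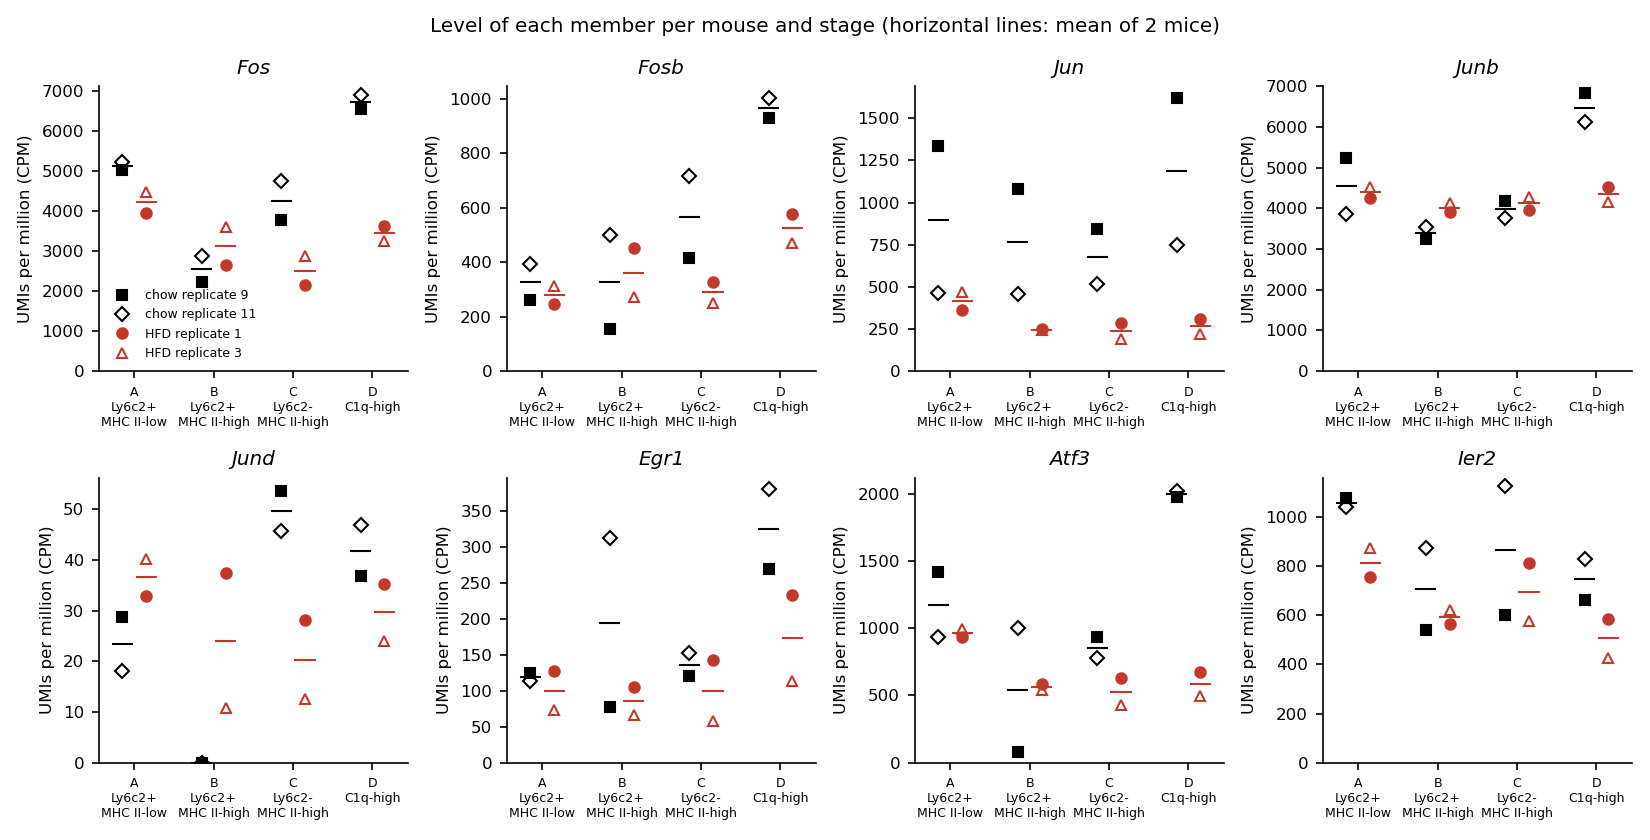
Level of each of the 8 genes in CPM (vertical axis) in the 4 stages (horizontal axis), with 1 point per mouse and lines at the mean of 2 mice. In stage D both chow mice lie above both HFD mice for all 8 genes, an order whose share over all genes is not given here. In stage A the diets overlap for Fosb, Jun, Junb, Egr1 and Atf3.

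The calls depended on the diet of the mice in the fit. With the chow mice alone edgeR called 853 of 5464 genes, 8% of all tested as lower in A, and 6 members were lower in A than in D (Fosb -1.79, Egr1 -1.66, Atf3 -1.01, Junb -0.74, Jun -0.68 and Fos -0.61 on the log2 scale). With the HFD mice alone it called 1216 of 5607 genes, 11.1% of all tested as lower and 10.6% as higher in A, of which Fosb (-1.03) and Egr1 (-0.91) were lower and Atf3 (0.62), Ier2 (0.59) and Jun (0.55) higher. The test without the term for mouse called 1 member among 774 genes between A and D (edgeR), and between C and D no member among 82 genes, with 1098 at an unadjusted p under 0.05.

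Stage B could be set against D in the HFD mice only, with 78 and 314 cells. There 397 of 5662 genes (7.01%) were called and 3.81% were called lower in B, among them 2 of the 8 members, Egr1 (-1.05 ± 0.20, edgeR adjusted p = 0.00022) and Fosb (-0.72 ± 0.16, edgeR adjusted p = 0.0019).

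Both diets were then compared within each stage and over all cells, with n = 2 mice per diet. In C1q-high cells 5 of the 8 genes were lower on HFD, in stage C Jun alone was, and in stage A none was called. In stage D 461 of 5055 genes (9.12%) were called and 4.41% were called lower on HFD, against 5 of the 8 members, namely Atf3, Fos, Jun, Fosb and Junb. The log2 fold changes of all 8 were negative, with a median of -1.02 beside -0.01 over all genes.

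Atf3 averaged 1999 ± 34.2 CPM under chow and 583 ± 125 CPM under HFD in stage D (SD, n = 2 each) and fell by a log2 fold change of -1.90 ± 0.17 (SE, edgeR adjusted p = 0.00015). Fos fell from 6718 ± 234 to 3445 ± 273 CPM, a log2 fold change of -1.09 ± 0.12 (edgeR adjusted p = 0.00055). For both genes the gap between diets was many times the distance between mice of 1 diet.

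Jun fell from 1186 ± 615 to 266 ± 60.5 CPM, a log2 fold change of -2.28 ± 0.33 (edgeR adjusted p = 0.0019). The chow mice lay far apart, at 1620 and 751 CPM, and both lay above both HFD mice. Fosb fell from 967 ± 52.2 to 525 ± 75.2 CPM (-1.01 ± 0.15, edgeR adjusted p = 0.0021) and Junb from 6470 ± 503 to 4341 ± 257 CPM (-0.70 ± 0.12, edgeR adjusted p = 0.0043).

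The other 3 genes kept their chow mice above their HFD mice in stage D but were not called. For any gene this order of 2 against 2 mice gives a two-sided exact permutation p of 0.33, and its share over all genes is not given here or below. Egr1 stood at 324 ± 78.9 and 173 ± 84.7 CPM (log2 fold change -1.03 ± 0.30, edgeR adjusted p = 0.042), Ier2 at 746 ± 119 and 506 ± 113 CPM (-0.69 ± 0.19, edgeR adjusted p = 0.031) and Jund at 41.8 ± 7.20 and 29.7 ± 7.92 CPM (-0.65 ± 0.25, edgeR adjusted p = 0.10).

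RNA of other cell types moved with this result. In stage D the 4 B and plasma cell genes measured stood at 1205 and 1085 CPM under chow against 177 and 132 CPM under HFD. Of these Igha (-3.37) and Jchain (-3.16) were called. The 7 dendritic cell genes stood at 49.2 and 54.0 against 189 and 187 CPM, of which Ccr7 gave 13.9, 10.4, 150 and 143 CPM. Ccr7 (3.50) was called, and the other dendritic cell gene tested had a negative log2 fold change and was not called. Cells with 3 or more UMIs of epithelial, B, plasma, T or NK cell genes were 139 of 751 and 434 of 1793 on chow, against 31 of 381 and 29 of 435 on HFD. With those cells removed edgeR called 548 of 4871 genes, 270 of them lower on HFD, and again 5 members, all lower. There Atf3 stood at -1.98, Jun at -2.39 and Fos at -1.14 on the log2 scale.

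Leaving out 1 mouse leaves 1 mouse in its diet, so that the pair of the other diet alone gives the spread and the lone mouse is assumed to vary like it. Calls rose or fell over all 5055 genes in these fits, against 461 with all 4 mice. Without chow replicate 9 edgeR called 7 members among 860 genes and without chow replicate 11 it called 6 among 705. Without HFD replicate 1 Atf3 was the 1 member called, among 25 genes, and without HFD replicate 3 no member was, with 15 genes called and 1158 at an unadjusted p under 0.05. The 8 log2 fold changes were negative in each of these 4 fits. Without HFD replicate 1 those of Atf3, Jun and Fos were -2.15, -2.55 and -1.18, and without HFD replicate 3 they were -1.68, -2.05 and -0.99. Jun moved most with the chow mouse left out, to -1.62 without replicate 9 and -2.74 without replicate 11. With all 4 mice DESeq2 called 509 of 5055 genes, 235 of them lower on HFD, and the same number of members as edgeR, 5.

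Summed over the 8 genes, cells of stage D held 18870 and 18033 CPM under chow against 10574 and 9165 CPM under HFD (two-sided exact permutation p = 0.33, which is the lowest that 2 against 2 mice can give). Most of these sums came from Fos, at 6552, 6883, 3637 and 3252 CPM, and Junb, at 6826, 6115, 4523 and 4159 CPM. The diets also differed in the distribution over single cells. With every cell thinned to 1500 UMIs, 711, 1626, 331 and 390 cells of stage D remained, and the median cell held 27 and 26 UMIs of the 8 genes on chow and 13 and 12 on HFD. The 10th percentile was 9 and 11 against 5 and 4 UMIs, and the 90th percentile 54 and 49.5 against 38 and 27. In stage A the medians were 19 and 16 against 13 and 16 UMIs.

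At this equal depth a Jun UMI was found in 73.4% and 55.4% of stage D cells on chow and in 29.3% and 24.9% on HFD, and an Atf3 UMI in 77.5% and 81.7% against 46.5% and 37.4%. Without thinning the shares were 86.4%, 75.2%, 43.3% and 45.3% for Jun and 89.6%, 89.9%, 59.8% and 56.8% for Atf3. The cells sorted here include no type known to lack these genes, so the share that free RNA in the droplets could give was not measured.

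In stage A 36 of 4513 genes (0.798%) were called between diets, 10 of them lower on HFD (0.222%), and none of the 8 members (edgeR, with 572 of all genes and 3 members, Jun, Ier2 and Fos, at an unadjusted p under 0.05). DESeq2 and the likelihood-ratio test, which called 36 and 101 of the 4513 genes, also called no member. Of the members 7 had negative log2 fold changes, with a median of -0.38 beside -0.02 over all genes. Jun had the most negative value, -1.22 ± 0.33 (edgeR adjusted p = 0.081), but chow replicate 11 at 461 CPM lay below HFD replicate 3 at 472 CPM. The value for Jun rested on the chow mice, at -0.26 without replicate 9 and -1.78 without replicate 11, and without HFD replicate 3 it was -1.43. Each of these fits has 1 mouse in 1 diet, so only the size of the change is given. Fos (-0.41 ± 0.18) and Ier2 (-0.50 ± 0.18) had both chow mice above both HFD mice. Jund, the member with a positive value (0.52 ± 0.51), had both HFD mice above both chow mice, at 28.7, 18.1, 32.9 and 40.2 CPM. The immunoglobulin RNA named above was itself called, Igha at -8.38 and Jchain at -8.75. Resident macrophage genes were lower on HFD in stage A too, at 5950 and 10096 CPM under chow against 3547 and 4203 CPM under HFD. Of 5 tested, 1 had a positive log2 fold change, and Pf4 (-3.31), Cx3cr1 (-1.87) and Apoe (-1.27) were called lower. The part of this in the values of the members was not tested. With cells carrying 3 or more UMIs of epithelial, B, plasma, T or NK cell genes removed, 25 genes and again no member were called, and Jun stood at 1457, 481, 367 and 476 CPM.

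In stage C 60 of 4785 genes (1.25%) were called and 0.606% were called lower on HFD, and of the 8 members Jun fell, from 680 ± 231 to 239 ± 64.5 CPM (-1.55 ± 0.28, edgeR adjusted p = 0.0040). Without HFD replicate 3 edgeR called no member and 39 of 4669 genes (326 at an unadjusted p under 0.05), and without chow replicate 9 or 11 it called 3 members among 162 and 152 genes. Fos (-0.78 ± 0.19, edgeR adjusted p = 0.031), Fosb (-0.98 ± 0.28, edgeR adjusted p = 0.072) and Atf3 (-0.72 ± 0.24, edgeR adjusted p = 0.13) had both chow mice above both HFD mice and were not called, whereas Junb was level at 3973 ± 308 and 4120 ± 239 CPM. The median over members was -0.75 beside 0.11 over all genes. Resident macrophage genes moved with this result too, at 19627 and 15707 CPM under chow against 3342 and 3378 CPM under HFD, with 1 of the 10 at 0 in all mice, as did Malat1, a nuclear RNA kept here as a sign of RNA quality, which was called lower (-1.03, edgeR adjusted p = 0.0026), and their part in it was not tested. In stage B, with 3 and 18 chow cells, the sum of the 8 genes stood at 7405 and 9547 CPM under chow against 8542 and 9492 CPM under HFD.

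Over all cells of a mouse, where the shares of the stages enter, 803 of 4948 genes (16.2%) were called and 8.55% were called lower on HFD. The same 5 members were among them, Atf3 (-1.78 ± 0.14), Fosb (-1.44 ± 0.14), Fos (-1.12 ± 0.11), Junb (-0.78 ± 0.11) and Jun (-2.18 ± 0.34). Summed over the 8 genes the levels were 18128 and 17673 CPM under chow against 10030 and 9724 CPM under HFD. Without HFD replicate 1 edgeR called 3 members among 267 genes and without HFD replicate 3 it called 1 among 150.

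**Figure D2:**
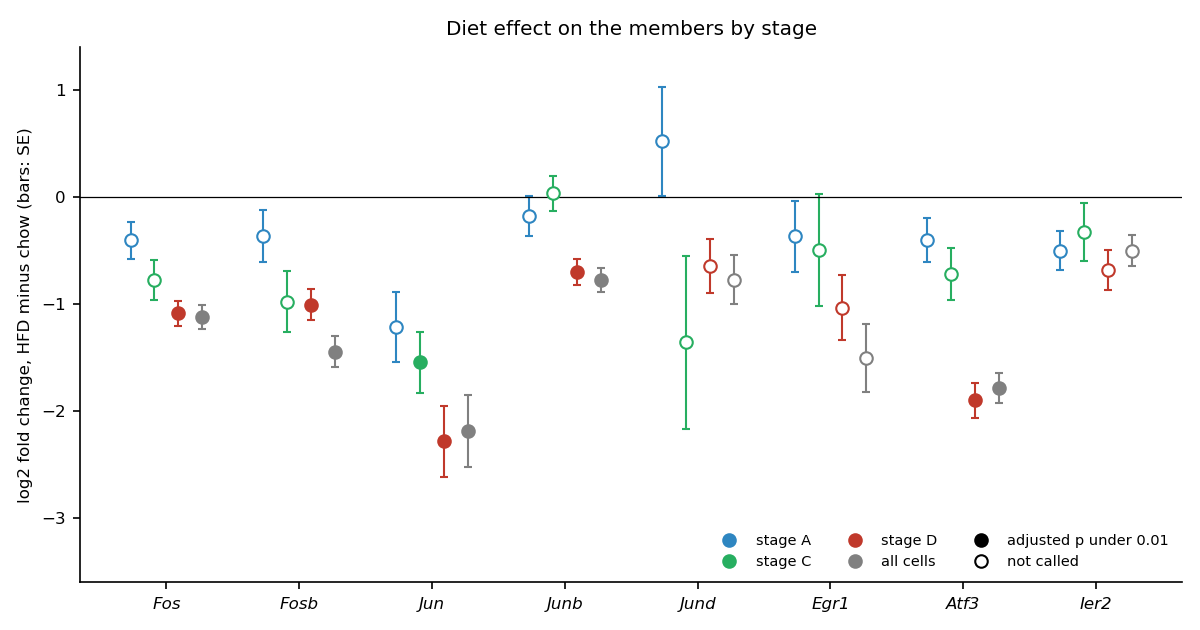
Log2 fold change of HFD minus chow for each gene (vertical axis, bars are standard errors of the edgeR fit) in stages A, C and D and over all cells. Filled points passed an adjusted p of 0.01. In stage D the 8 points lie below 0 and 5 are filled, in stage C that of Jun is filled, and in stage A none is.

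Whether the diet effect differed between stages was tested directly as an interaction of diet and stage, with a term for each mouse. The difference of the effect, A minus D, was positive for all 8 genes, with a median of 0.74 beside -0.02 over all genes, and 59 of 5389 genes (1.09%) were called, and 0.278% of all tested were called with a positive difference. Of the members Atf3 (1.60 ± 0.23, edgeR adjusted p = 0.00018) and Jun (1.20 ± 0.25, edgeR adjusted p = 0.0099) were called, so the log2 fold change of both was more negative in stage D than in stage A, where neither was itself called. Fos followed at 0.75 ± 0.20 (edgeR adjusted p = 0.047). DESeq2 called Atf3 (adjusted p = 3.0e-05) but not Jun (adjusted p = 0.024). Without chow replicate 11 neither was called, with 32 genes called and 741 at an unadjusted p under 0.05, and without chow replicate 9 or HFD replicate 3 Atf3 was the 1 member called, among 33 and 31 genes. Jun stood at 0.73 without HFD replicate 3 and at 1.64 without HFD replicate 1. This test uses the same sums of stages A and D as the comparisons above and is not independent of them.

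The levels were then followed along the C1q level itself, over all cells and without stages. On chow the 8 genes together stood at 13213 and 13771 CPM in cells with under 3 C1q UMIs per 10000 and at 11717 and 11207 CPM between 15 and 44.3. They stood at 20288 and 17015 CPM between 75.1 and 127 and at 18889 and 18215 CPM above 127. On HFD the values in these 4 ranges were 9777 and 10281, 7538 and 9189, 7229 and 8184, and 12828 and 10168 CPM. Between 75.1 and 127 both chow mice were thus above, and both HFD mice below, their own level in cells with under 3 C1q UMIs, and no test was made of this. Between 75.1 and 127 as well Atf3 stood at 2104 and 1787 CPM on chow against 302 and 327 CPM on HFD. The 6 ranges held from 20 to 1615 cells per mouse, and the fewest, 20, 22 and 23, were in the chow mice.

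**Figure D3:**
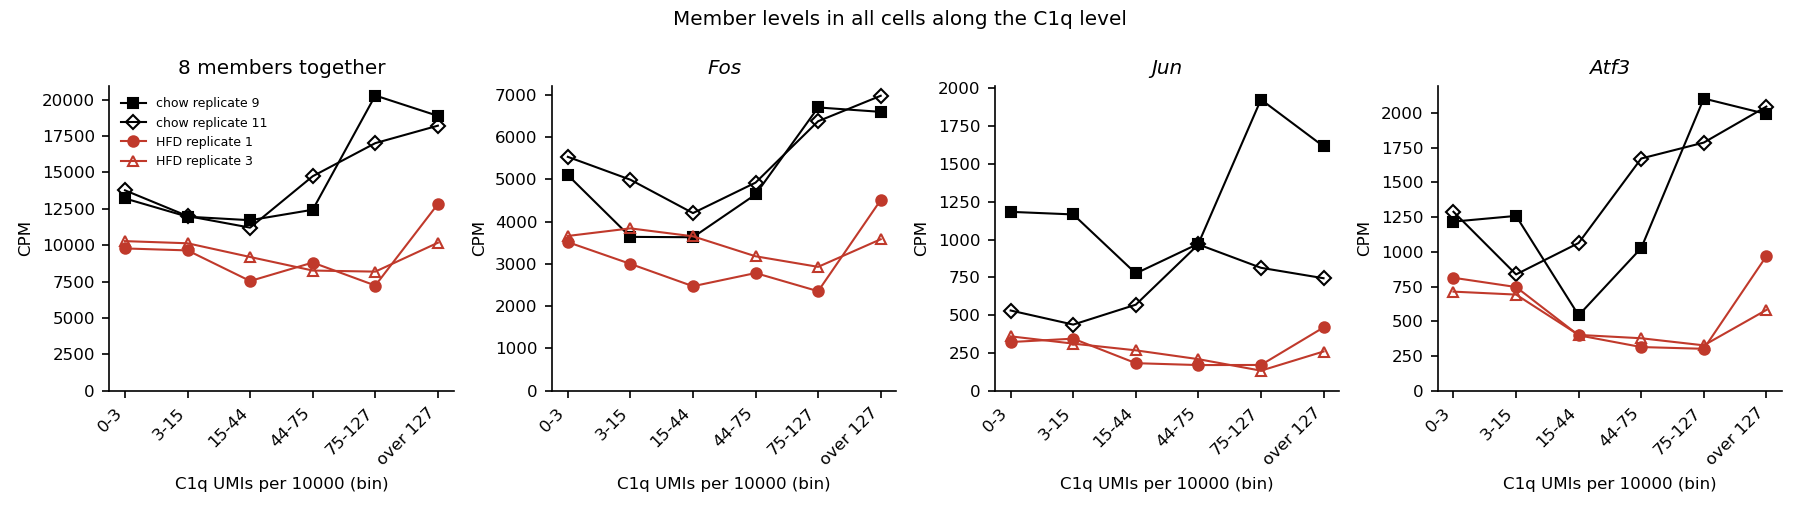
Level in CPM (vertical axis) of the 8 genes together and of Fos, Jun and Atf3 in cells grouped by C1q UMIs per 10000 (horizontal axis), with 1 line per mouse. For the 8 genes together the chow lines lie at 20288 and 17015 CPM between 75.1 and 127 C1q UMIs per 10000 and the HFD lines at 7229 and 8184 CPM.

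Stage D was then divided by C1q level and by cluster, after the data had been looked at. In stage D cells below the median C1q level of 189 UMIs per 10000, edgeR called 540 of 4909 genes, with 5.44% of those tested lower on HFD, and 7 members were called lower on HFD, and only Jund was not. There Atf3 stood at 2070 and 2288 CPM under chow against 440 and 412 CPM under HFD (-2.52, edgeR adjusted p = 1.7e-05), and Jun at 1868 and 855 against 215 and 192 CPM (-2.91). At or above the median 63 of 5141 genes were called, with 0.408% of those tested lower on HFD, and of the members Atf3 alone, with 1890 and 1864 CPM under chow against 1065 and 659 CPM under HFD (-1.18, edgeR adjusted p = 0.0059).

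In stage D cells of clusters 5 and 6, with 593, 1434, 106 and 50 cells, no member was called, and 3 of 5041 genes (0.0595%) were called in all (edgeR, 452 at an unadjusted p under 0.05). Fosb stood there at 980 and 1047 CPM under chow against 931 and 1027 CPM under HFD, and Junb at 7196 and 6374 against 6465 and 6110 CPM, so that these genes overlapped between diets. Both chow mice still lay above both HFD mice for Atf3, at 2146 and 2116 against 1511 and 1302 CPM, for Jun, at 1747 and 764 against 621 and 442 CPM, and for Fos, at 6967 and 7152 against 6030 and 5540 CPM. Cluster 3 held 48.0% and 54.9% of stage D cells on HFD and 1.46% and 0.892% on chow. In cluster 3, taken with the cells of all stages, 37 of 5108 genes were called, with 0.372% of those tested lower on HFD, among them Jun (-1.52) and Atf3 (-1.18), both lower on HFD, and the 8 genes together overlapped, at 7594 and 9446 CPM under chow against 7587 and 7656 CPM under HFD. Cluster 4 held a more even share of stage D, 19.6% and 18.7% on chow and 20.2% and 26.7% on HFD. In cluster 4, with the cells of all stages, 70 of 4999 genes were called, with 0.7% of those tested lower on HFD, and of the members Jun alone (-1.17, edgeR adjusted p = 0.0087). There Atf3 stood at 1155 and 1522 CPM under chow against 853 and 650.5 CPM under HFD (-0.82, edgeR adjusted p = 0.029), and the 8 genes together at 13491 and 14556 against 13140 and 11156 CPM. The part of this makeup in the fall over the whole of stage D was not tested beyond these values.

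**Figure D4:**
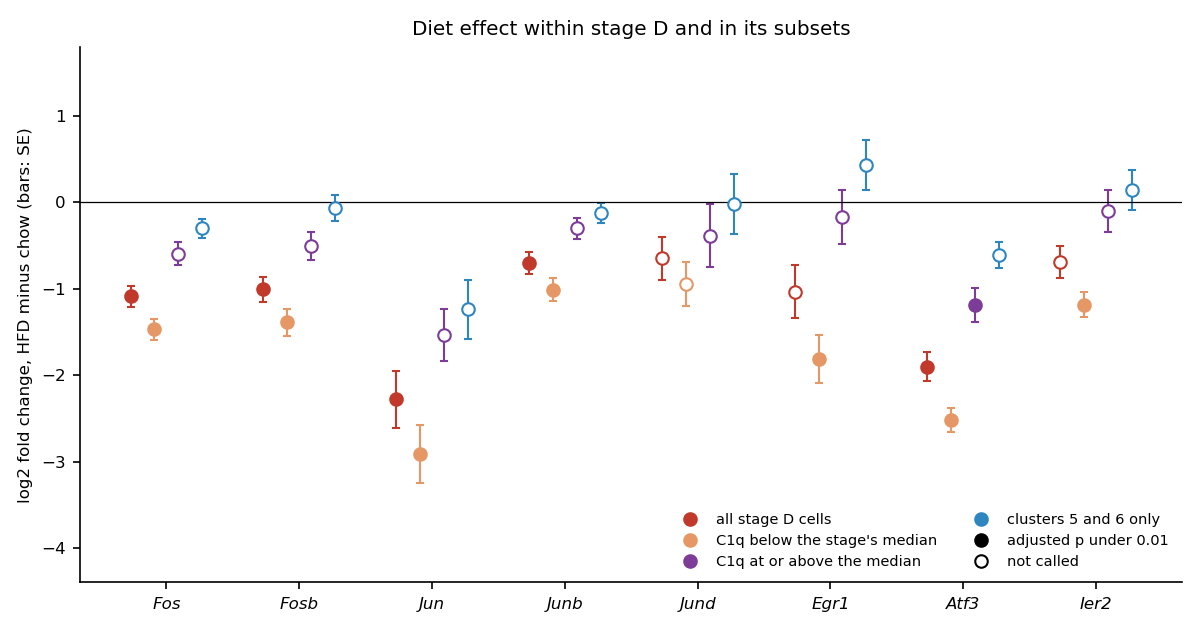
Log2 fold change of HFD minus chow for each gene (vertical axis, bars are standard errors) in all cells of stage D, in cells below and at or above its median C1q level, and in its cells of clusters 5 and 6. Filled points passed an adjusted p of 0.01. The values are most negative below the C1q median, and in clusters 5 and 6 none is filled.

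Genes of the same pathway, listed with results of these data known, were read in the same fit of stage D. Over all genes of this fit 4.41% were called lower and 9.12% either way. Of 27 other immediate-early genes tested 8 fell and 1 rose on HFD, with Rhob (-1.58), Gadd45g (-1.52) and Klf2 (-1.51) falling and Nr4a2, an orphan nuclear receptor, rising by 1.75. Of 16 other zipper genes of the AP-1 and ATF families 2 fell, among them Maf (-1.67), which encodes a zipper factor of macrophages. Of 14 feedback inhibitors 3 fell, the MAP kinase phosphatases Dusp6 (-1.19) and Dusp1 (-0.86) and the mRNA decay factor Zfp36 (-0.95). Of 13 upstream kinases and factors none fell and Braf rose (1.24). The list medians were -0.36, -0.18, -0.56 and -0.03, beside -0.01 over all genes.

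Heat-shock genes are known to answer tissue dissociation. In stage D 5 of 14 tested fell, among them Hspa1a (-1.63), Dnajb1 (-1.44), Hsph1 (-1.28) and Dnaja1 (-1.04), and the whole list of 15 genes, each detected in stage D, stood at 7761 and 9488 CPM under chow against 5874 and 5760 CPM under HFD. In stage A it stood at 5533 and 5966 against 4499 and 5741 CPM, with none of 12 called beside 0.798% of all genes in that stage, and in the interaction of diet and stage none of 14 was called beside 1.09% of all genes, so a difference between the stages was not shown for this list. Malat1 also fell in stage D, from 30693 and 35776 to 21064 and 19204 CPM (-0.85). All mice went through the same digestion as far as the sources used here tell, which give no time or batch of digestion per mouse, and the part of digestion in these levels was not tested.

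Finally, the 8 genes were compared from cell to cell. Cells were thinned to 1500 UMIs and the mean of the mouse and stage was subtracted, so that the remaining correlation across 799, 1726, 751 and 1103 cells describes cells of 1 stage and mouse, which share library, digestion and depth. Averaged over the 4 mice, r was highest for Fos with Junb (0.31, from 0.21 to 0.42 over mice) and Fos with Atf3 (0.30, from 0.28 to 0.34), followed by Fos with Jun (0.27) and Jun with Atf3 (0.24). Pairs with Jund lay between -0.02 and 0.05, at the low counts of that gene. The mean over the 28 pairs was 0.17, 0.14, 0.15 and 0.11 in the 4 mice.

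Among 2963 other genes, 9 of the 10 most like the mean of the members across cells were Btg2 (mean r 0.34), Zfp36 (0.34), Klf6 (0.32), Ccl3 (0.32), Ccl4 (0.28), Rgs1 (0.26), Hspa1a (0.24), Dusp1 (0.22) and Rgs2 (0.22). The median over all genes compared was -0.01 and the 99th percentile 0.12. Of these genes 5 belong to the lists above, Btg2 and Klf6 to other immediate-early genes, Zfp36 and Dusp1 to feedback inhibitors and Hspa1a to the heat-shock list, while Ccl3 and Ccl4 encode chemokines and Rgs1 and Rgs2 regulators of G-protein signalling.

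**Figure D5:**
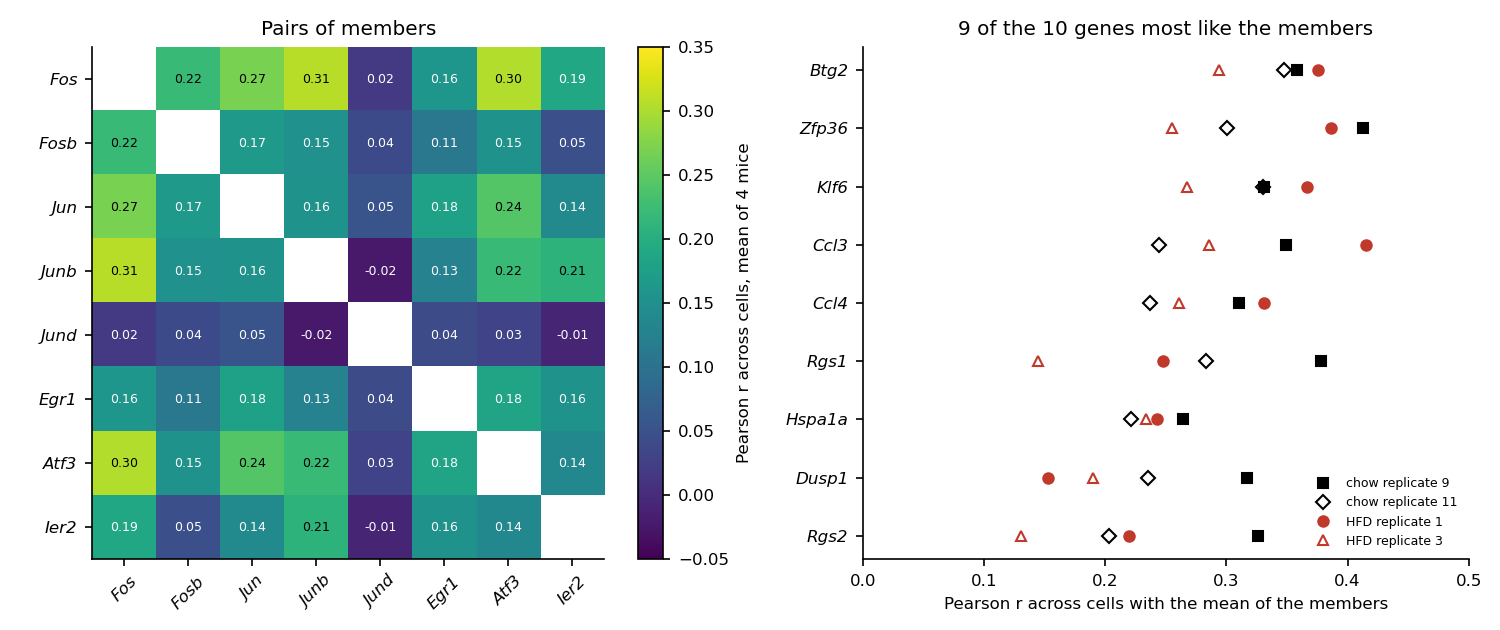
Left, Pearson r across cells for each pair of the 8 genes, as the mean of 4 mice (colour and number). Right, r of these 9 other genes with the mean of the members (horizontal axis), with 1 point per mouse. Pairs of Fos with Junb and Atf3 reach 0.31 and 0.30, and the row of Jund stays at or below 0.05.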

How the data were processed

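Reads were pseudo-aligned by the authors using Kallisto 0.46.0 together with BUStools 0.39.2 (build mm10 in the submitters' notes). Cells of low quality, rare genes and cells annotated as neither macrophage nor monocyte had been left out, and the deposited values are UMI counts for each gene and cell without normalization. Whole counts of 3' ends are not scaled by transcript length, so levels were compared within a gene or within the same sum of genes. Such a sum follows its most abundant genes. Cell names gave the mouse of every cell, and 11819 of 11820 genes were matched to symbols.

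The members, lists and tests were chosen with earlier results of these data known. MHC class II and C1q limits were set by Otsu's threshold over all cells. Counts were summed per mouse and stage, and genes were kept that had a CPM above 1 in 2 or more sums and were found in 5% or more of the cells. The quasi-likelihood test of edgeR 4.0.16 was run on TMM-scaled sums with an FDR threshold of 1%, where every mouse had 20 or more cells. Fold changes come from TMM-scaled sums and printed CPM from unscaled ones, except under Other observations, where the CPM are TMM-scaled. Alternatives were the likelihood-ratio test, DESeq2 (version 1.42.0), other scaling, no filter, each mouse left out, other gates, doublets or cells with UMIs of other types removed, cells thinned, and 6 Ward clusters on 8 principal components after scran (version 1.30.0), built without the members and without the immediate-early and heat-shock lists. Doublets were marked with Scrublet in scanpy (version 1.11.5) and kept in the results. Named genes are all 8 members, of each other list at most 4 called genes with the largest change, and the 10 genes most like the members across cells. Of these, 2 genes are not reported here. The tests were tried on simulated data. With 2 mice per diet the number of animals limits the precision. Exact limits for counts of 0 cover counting error only.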

Additional observations from a re-analysis of the deposited data

Results flagged for a closer look

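The diet effect on 2 of the 8 genes differed between stages in the interaction test of edgeR. For Atf3 the log2 fold change of HFD against chow was higher in stage A than in stage D by 1.60 ± 0.23 (adjusted p = 0.00018), and for Jun by 1.20 ± 0.25 (adjusted p = 0.0099). The call for Jun was close to the threshold and was lost with DESeq2, RLE scaling, higher gates, the 3-gene monocyte gate, doublets or shared barcodes removed and thinned cells (adjusted p from 0.0115 to 0.0521), and with any mouse but HFD replicate 1 left out (0.0406 to 0.286). That for Atf3 was lost without chow replicate 11 (0.0143). In both HFD mice Atf3 was higher in A than in D, and in both chow mice it was lower. Jun was lower in A than in D in both chow mice and higher in both HFD mice. Stage D held fewer cells of clusters 5 and 6 on HFD, and the part of that in these differences was not tested. Groups of 2 mice are too small for the check of outlying samples used here, which needs at least 4.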

How the results depend on the processing

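No paired analysis was possible because the chow mice (9 and 11) and HFD mice (1 and 3) share no replicate number. In the stage comparisons, leaving out the mouse block gave 1 member called for A against D, and 0 members and 82 genes for C against D. Over all alternatives 776 of 902 member log2 fold changes kept direction and call, 44 became called, 47 lost the call and 35 reversed, and the member counts stayed within 1.5 times of the reported ones in 78 of 113 settings and the gene counts in 74 of 113. Causes were not tested. The Ward clusters set in place of stages A, C and D were clusters 1, 3 and 6, and cluster 3 holds more stage D than stage C cells in both HFD mice (183 against 87 and 239 against 126), so it is not the same population as stage C.

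Genes called between diets were, for stage A, 101 (likelihood-ratio test), 123 (no filter), 68 (higher gates), 66 (3-gene monocyte gate) and 45 to 118 with 1 mouse left out; for stage C, 170, 171 (no filter), 29 (higher gates), 37 (Ward cluster) and 39 to 162; for stage D, 820, 860 (no filter), 278 (thinned), 63 (C1q at or above the median), 3 (clusters 5 and 6), 4 (Ward cluster) and 15 to 860; and over all cells 1306, 1218 (no filter) and 150 to 920. C against D gave 437, 447 (no filter) and 182 to 225, and the interaction 138, 127 (no filter), 92 (cells with other types' UMIs removed), 31 (thinned) and 31 to 44.

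Members called were 1 in stage A without the filter or with the Ward cluster and 0 to 1 with a mouse left out. In stage C they were 2 with the Ward cluster or with other types' cells removed, and 0 to 3. In stage D they were 1 at or above the C1q median, 0 in clusters 5 and 6 or the Ward cluster, and 0 to 7, and over all cells 1 to 6. A against D gave 6 with chow mice and 5 with HFD mice (5 with 4 stages) and 2 to 2 with a mouse left out. C against D gave 6 without the filter or with chow mice, and 2 to 5. The interaction gave 4 without the filter, 1 with DESeq2, RLE, higher gates, the 3-gene gate, doublets or shared barcodes removed, or thinned cells, and 0 to 2.

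Of the reversed log2 fold changes, only those of Fosb and Junb in stage D had been called. In stage A Junb became 0.0047 (no filter) and ranged from -0.36 to 0.059 with a mouse left out. In stage C Junb became -0.0069 (DESeq2), -0.0070 (RLE), -0.029 (higher gates) and -0.066 (other types removed), with -0.051 to 0.11 over mice left out, Egr1 ran from -1.25 to 0.064, Ier2 from -0.73 to 0.17, and Jund became 0.60 (Ward cluster). In stage D the Ward cluster gave 0.14 for Fosb, 0.71 for Egr1, 0.0027 for Junb, 0.36 for Ier2 and 0.17 for Jund, and clusters 5 and 6 gave 0.43 for Egr1 and 0.14 for Ier2. For A against D the HFD mice gave 0.16 (0.16 with 4 stages) for Fos, 0.62 (0.63) for Atf3, 0.55 (0.55) for Jun and 0.19 (0.20) for Jund. Jun became 0.10 without scaling, and with a mouse left out Atf3 ran from -0.60 to 0.16, Jun from -0.44 to 0.17 and Jund from -0.61 to 0.068. For C against D Ier2 became -0.058 (no filter) and -0.16 (chow mice), and ran from -0.0084 to 0.24, and its interaction ran from -0.12 to 0.62.

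Without scaling the share of called genes that were higher moved from 72.2% to 83.3% in stage A, from 51.6% to 65.3% in stage D, from 47.3% to 69.0% over all cells, from 49.9% to 61.1% for A against D and from 31.5% to 56.3% for C against D. Diet comparisons in stage B were not run, nor were stage C and the stage comparisons with lower gates, the 3-gene gate or thinned cells, where a mouse had under 20 cells. The mean r over member pairs was 0.19 without thinning.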

Other observations

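Of 27 other immediate-early genes tested for the same interaction, 4 were called by edgeR, beside 59 of 5389 genes (1.09%) in all, and they went both ways. Socs3, which encodes an inhibitor of cytokine signalling, stood in stage A at 456 and 422 CPM under chow against 871 and 805 CPM under HFD after TMM scaling, and in stage D at 1202 and 1174 against 724 and 574 CPM. Its diet effect was higher in A than in D by 1.82 ± 0.20 on the log2 scale (adjusted p = 6.3e-06). Gadd45g, a stress response gene, lay at 153 and 156 against 192 and 208 CPM in A and at 342 and 366 against 144 and 100.5 CPM in D, a difference of 1.92 ± 0.28 (adjusted p = 0.00018). Klf6, a zinc finger factor, followed with 1.02 ± 0.20 (adjusted p = 0.0059).

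Nr4a2 went the other way, by -2.18 ± 0.31 (edgeR adjusted p = 0.00017). It stood in stage A at 225 and 142 CPM under chow against 102 and 164 CPM under HFD, and in stage D at 35.4 and 26.8 against 94.0 and 109 CPM, so that in stage D both HFD mice were above both chow mice, and in stage A the diets overlapped.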
